A study of Aspergillus nidulans with 6 samples.

Results

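Salt repression seen only in the strains that lack *cnaB* was found for 49 genes of *Aspergillus nidulans*, of 10957 genes listed. They were chosen by a rule on the deposited values. A gene had to have a value of at least 2 in all 6 libraries, in TMM-normalized RPM (the reads of a gene per unit of depth, scaled by the trimmed mean of M values). Its salt to control ratio had to be at most 0.4 in both deletion strains and at least 0.63 in the parent. Of the genes listed, 7294 had at least 2 in all 6 libraries, and the 49 genes are 0.672% of these. The ratios chose the genes, so they are given below as a description with no test, and repression means here a ratio of at most 0.4.

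The 6 libraries came from 3 strains, each grown for 18 h at 37°C in minimal medium with glucose and nitrate, then left untreated or exposed to 800 mM NaCl for 30 min. The parent was TN02A7 (*pyrG89*; *riboB2*; *pyroA4*, with *nkuA* replaced by *argB2*; *veA1*). WSA08 (Δ*cnaB*), called the single mutant below, carries *pyrG* in place of *cnaB* on that background. LXA05 (Δ*cnaB*Δ*cchA*), the double mutant, carries *pyrG* in place of both *cnaB* and *cchA*, with *riboB2* and *pyroA4* not among its listed alleles. All 3 strains share the *nkuA* and *veA1* alleles. Each strain with each treatment had 1 library from 1 culture, so no difference between libraries has a replicate check within the sequencing data. The paper also ran quantitative RT-PCR on randomly selected genes, with 3 independent biological replicates. Its primers include AN7893, AN7902 and AN7903, and it reports trends similar to those of the sequencing. Those measurements were not used here. The *pyrG* marker goes with loss of *cnaB*, and neither the marker nor the single culture of the parent per treatment can be told apart from the loss of *cnaB*. In RNA from whole cultures, fewer cells of a type and less RNA per cell cannot be told apart either.

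Calcineurin is a protein phosphatase that is switched on by calcium and calmodulin. *cnaB* encodes its regulatory subunit, and *cchA* encodes a calcium channel of the plasma membrane. In fungi, calcineurin is best known for acting on the zinc finger protein CrzA, which then enters the nucleus and turns on genes for ion transport and the cell wall. Genes for the synthesis of secondary metabolites in *Aspergillus* often lie side by side on a chromosome and are switched on and off together.

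The deleted genes were examined first. *cnaB* (AN6566) had 86.2 normalized RPM in the parent control and 73.6 with salt and was listed at 0 in the other 4 libraries. *cchA* (AN1168) was between 74.1 and 136 in the parent and the single mutant and at 3.56 and 3.96 in the double mutant. The labels name conidia as the source. Of the conidiation markers, *dewA* was listed at 0 in all 6 libraries, *brlA*, *abaA*, *wetA*, *rodA* and *ivoB* did not exceed 14.7, and *yA* was between 12.5 and 14.3 without salt and between 227 and 236 with salt. The hyphal chitin synthase gene *chsB* was between 48.1 and 132. The nonzero values of a library were whole multiples of 1 read (within 0.01 read), which gave between 41369564 and 50006318 reads per library. The smallest value of any of the 49 genes rested on 83 reads counted in this way. The totals exceed the reads stated for the study, so these read numbers may be too high. Values below about 1 were listed at 0.

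In the parent, the 49 genes had a median salt log2 ratio of -0.31. The median was -1.83 for the single and -1.64 for the double mutant, against medians of -0.03, -0.01 and -0.02 in the same strains over the 7294 genes. Repression was found for 10.9% of the 7294 genes in the parent, 9.72% in the single mutant and 8.95% in the double mutant. In the parent, 35 of the 49 genes had a ratio under 1 and 14 had a ratio of 1 or more.

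Repression in both mutants together was found for 509 genes (6.98%). Most of these genes were repressed in the parent as well: 324 had a parent ratio of at most 0.4, and 136 lay between 0.4 and 0.63. The 49 genes are the upper end of one continuous distribution of parent ratios. AN6116, with a parent ratio of 0.6301, is the last gene inside the limit, and AN5228, with 0.626, is the first gene outside it. In the double mutant, AN6224 (0.398) is just inside the limit of 0.4 and AN6757 (0.402) just outside. In the single mutant, AN1652 (0.389) is the last gene inside and AN2396 (0.403) the first outside. At the limit of 2 on the values, AN7897 (2.14) is just inside and AN11002 (1.98) just outside. By 95% exact (Clopper-Pearson) intervals of the reads, 30 of the 49 genes were clear of all 3 ratio limits. The intervals cover counting error only and may be too narrow, since the recovered reads exceed those stated for the study. The spread between cultures of a strain is unknown.

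**Figure D1:**
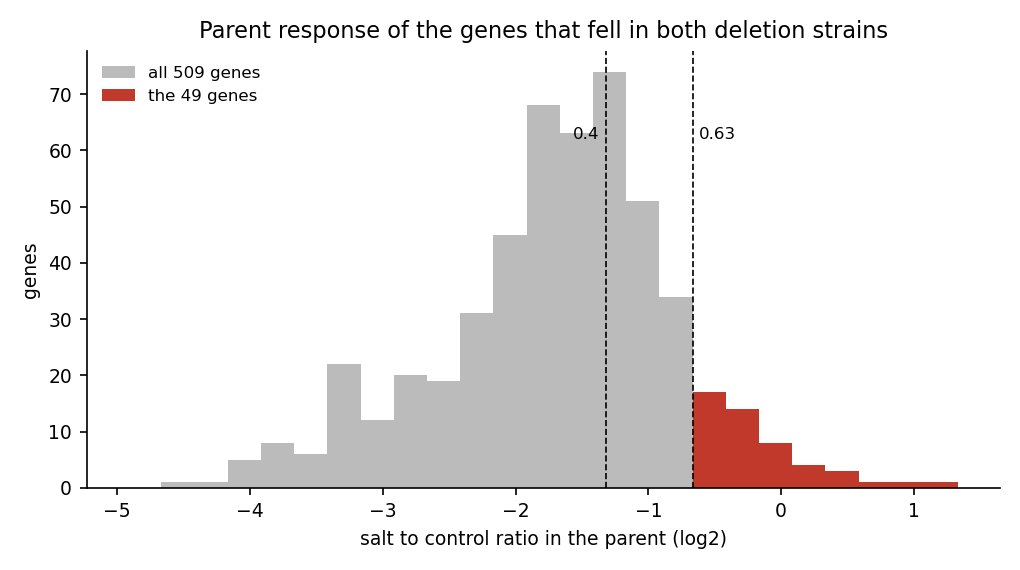
Number of genes (vertical axis) by the log2 salt to control ratio in the parent (horizontal axis) for the 509 genes with a ratio of at most 0.4 in both deletion strains, with dashed lines at ratios of 0.4 and 0.63. The 49 genes, in red, form the right-hand end of a single distribution, and 324 genes lie to the left of 0.4.

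The genes repressed by salt only in the mutants were mostly genes that stood higher in the mutants than in the parent in the separate control cultures without salt. Without salt, 45 of the 49 genes had a higher value in both mutants than in the parent, against 30.0% of the 7294 genes. A difference of at least 2-fold upward in both was found for 31 genes (63.3%), against 6.64% of the 7294 genes, and a difference of at least 2-fold downward in both for 1 gene, against 9.12%. The median difference from the parent without salt was 1.34 on the log2 scale for the single and 1.72 for the double mutant, while over the 7294 genes it was -0.30 and -0.29. With salt, 35 of the 49 genes were within 2-fold of the parent in both mutants, against 84.5% of the 7294 genes. A further 3 genes were at least 2-fold higher in both with salt, against 3.33%, and 3 were at least 2-fold lower, against 4.43%. The median difference with salt was -0.37 and 0.12 for the single and the double mutant, against -0.26 and -0.27 over the 7294 genes. The control values that enter these differences are also the denominators of the ratios in the rule. The rule thus favours genes with high mutant and low parent controls. Part of the excess over the 7294 genes follows from it, and the differences were not tested.

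**Figure D2:**
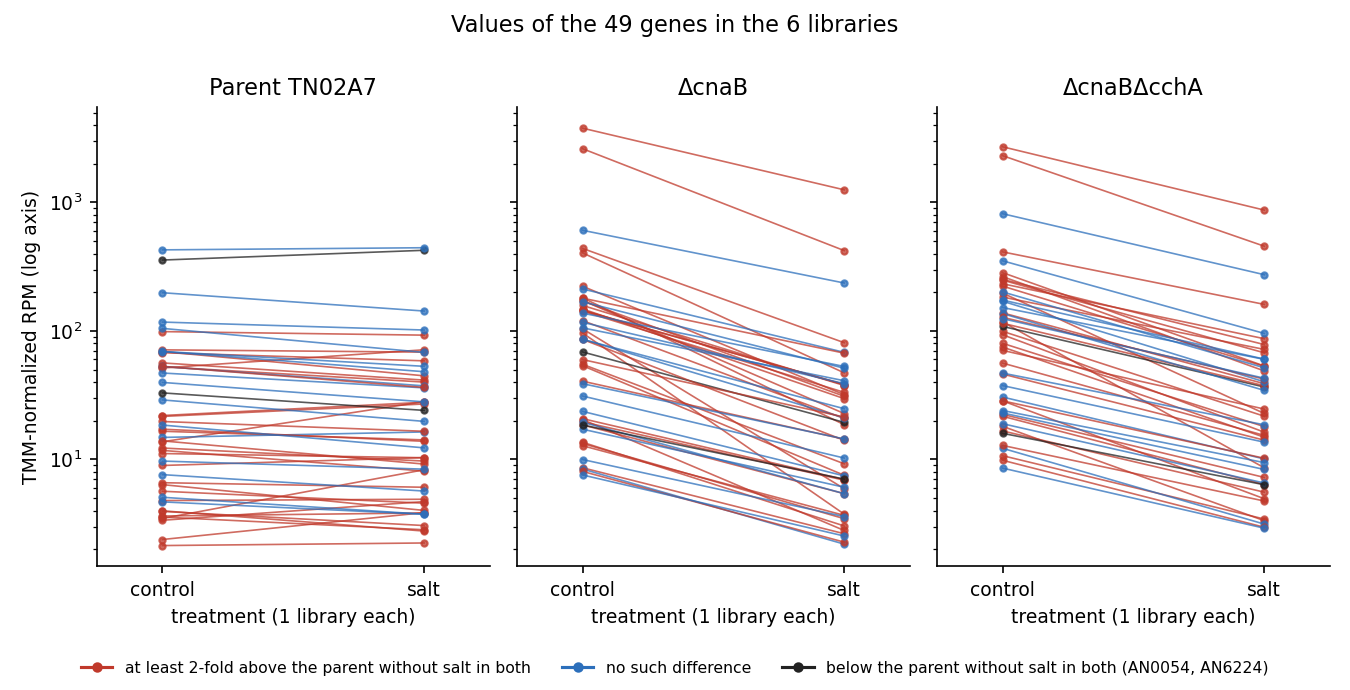
TMM-normalized RPM (log axis) of the 49 genes without and with salt in each strain, each line a gene and each point 1 library. The lines are near level in the parent by the rule and slope down in both deletion strains, where the 31 genes in red start at least 2-fold above their parent values.

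The 324 genes repressed in all 3 strains did not stand higher without salt. Their median difference from the parent was -0.33 for the single and -0.16 for the double mutant, and 23 of them (7.10%) were at least 2-fold higher in both. For the 136 genes with a parent ratio between the limits, the medians were 0.25 and 0.56, and 25 genes (18.4%) were at least 2-fold higher. Since the salt ratio in the parent separates these groups from the 49 genes, part of this order follows from the rule, and it is given as values only.

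**Figure D3:**
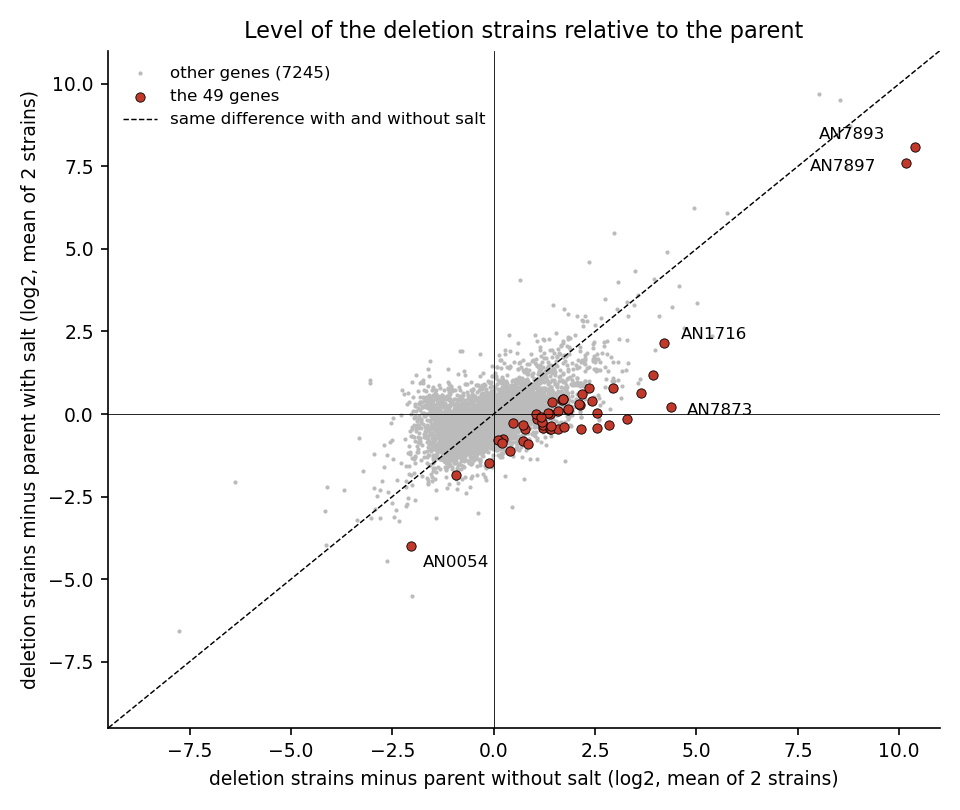
Deletion strains minus parent with salt (vertical axis) against the same difference without salt (horizontal axis), both as log2 and as the mean of the single and double mutants, for the 49 genes (red) and the other 7245 genes (grey). The 49 genes lie below the dashed line of equal difference by the rule. Of these, 40 are farther from the parent without salt than with salt, a split that the rule favours.

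Of the 31 genes with the higher control level, 23 were within 2-fold of the parent with salt in both mutants. AN5172 is a clear example. Its values were 8.98 without salt and 10.3 with it for the parent, 104 and 5.92 for the single mutant, and 74.96 and 14.9 for the double mutant. The control values of the mutants stood 11.6-fold and 8.34-fold above that of the parent, and the 4 other libraries were between 5.92 and 14.9. AN5659 stood at 3.37 and 4.70 in the parent, 20.4 and 2.80 in the single mutant, and 28.6 and 4.95 in the double mutant, in normalized RPM without and with salt. AN6046 stood at 21.98 and 27.9, 120 and 20.8, and 138 and 38.9 in the same order. For both genes, the control libraries of the mutants were above all 4 other libraries.

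AN4264 showed the same pattern at a higher level. It was measured at 98.8 and 92.7 normalized RPM in the parent, 439 and 81.0 in the single mutant, and 412 and 161 in the double mutant. The values of AN5649 were 71.3 and 68.4, 180 and 67.2, and 252 and 78.4 in the same order. Again the control libraries of the mutants exceeded every other library. Neither gene has a symbol in the RefSeq table used for names.

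In 3 genes the mutants stayed at least 2-fold above the parent with salt, so that the value was lower with salt without reaching the parent level. AN7893 was near silent in the parent, at 2.39 without salt and 3.86 with it. It was at 3780 and 1252 in the single mutant, and 2708 and 871 in the double mutant. AN7897 was at 2.14 and 2.24 in the parent, 2617 and 422 in the single mutant, and 2310 and 456 in the double mutant. These were the 2 genes of the set with the highest mean values, and both lay just above the limit of 2 in the parent. For AN7897 the parent ratio was 1.05 with a counting interval of 0.784 to 1.40. AN1716 was at 11.1 and 10.3, 171 and 31.0, and 248 and 67.6, so that all 4 mutant libraries were above both parent libraries.

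The remaining 5 of the 31 genes were more than 2-fold from the parent with salt in 1 mutant. AN6116 was at 6.37 and 4.02 in the parent, 96.5 and 3.76 in the single mutant, and 99.3 and 21.7 in the double mutant. Its ratio of 0.0389 in the single mutant was the lowest of the set, and its ratio in the double mutant was 0.219. AN10964 was at 51.5 and 71.4, 223 and 31.9, and 233 and 87.0, so that with salt the single mutant was below the parent and the double mutant above it. The others were AN4126, AN5169 and AN7884.

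A further 18 genes did not stand 2-fold higher in both mutants without salt. Of these, 9 were within 2-fold of the parent in both, and 14 were lower than the parent in both mutants with salt. The shares of all 7294 genes were not worked out for these counts. With salt, the median difference of all these genes from the parent was itself -0.26 for the single and -0.27 for the double mutant. Nothing is read from the counts. The gene with the highest level among them was *sebA* (AN1652), which encodes a zinc finger transcription factor whose counterpart in *Aspergillus fumigatus* is needed for tolerance of several stresses. *sebA* was at 427 and 444 normalized RPM in the parent, 607 and 236 in the single mutant, and 817 and 274 in the double mutant. Both parent libraries lay between the control and salt libraries of each mutant. AN0933 was at 198 and 143 in the parent, 169 and 51.3 in the single mutant, and 201 and 51.7 in the double mutant. Here the 3 control values were within 1.19-fold of each other, and the difference lay in the salt libraries.

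The genes AN10580 and *bgt3* (AN4700) were split like *sebA*. AN10580 was at 117 and 102, 212 and 68.1, and 351 and 95.6 in the parent, the single and the double mutant. The values of *bgt3* were 69.2 and 53.1, 106 and 41.0, and 125 and 42.9. The mutant controls were above the parent control in both genes, and the mutant salt values below the parent salt value.

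The gene *afeA* (AN0054) went the other way without salt. It was at 356 and 424 normalized RPM in the parent, 68.6 and 19.4 in the single mutant, and 108 and 36.7 in the double mutant. All 4 mutant libraries were below both parent libraries. The parent control was 5.19-fold above that of the single and 3.28-fold above that of the double mutant. AN6224 was lower in the mutants as well, at 32.97 and 24.1 in the parent, 18.6 and 7.03 in the single mutant, and 16.0 and 6.36 in the double mutant. Of the 49 genes, 9 were farther from the parent with salt than without it, *sebA*, *afeA*, AN0933 and AN6224 among them, and 40 were farther without salt. The rule favours genes with high mutant controls, and the share over all genes was not worked out, so nothing is read from this split.

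The level averaged over both treatments was compared between the mutants and the parent with limma on log2(value + 0.1), as a contrast orthogonal to the salt ratios that the rule used. It is still made from the libraries that chose the genes, and it is the mean of the control and the salt difference, so a high control value in the mutants raises it as well. The libraries of the single and double mutants stood in for replicates of the loss of *cnaB*, and the lone parent libraries were assumed to vary like them, so the calls measure the spread between these libraries. With a two-sided test and Benjamini-Hochberg adjustment over all genes, 24 of the 49 genes were higher in the mutants at an adjusted *P* of 0.05, against 12.5% of the 7294 genes. The genes that were lower numbered 3 (*afeA*, AN6224 and AN0933), against 39.9%. Nothing is read from these counts about the set. The adjusted *P* values below rest on the same stand-in and do not measure the spread between cultures of a strain. AN7897 was higher by 8.83 ± 0.11 (SE) on the log2 scale (limma adjusted *P* = 2.8e-06), and *afeA* was lower, with a difference of -3.01 ± 0.30 (adjusted *P* = 0.0030). For *sebA* the difference was -0.04 ± 0.16 (adjusted *P* = 0.84). The median of all 7294 genes was -0.30 in this contrast. With a median of ratios over the 6 libraries, which brought that median to -0.01, 27 of the 48 genes then tested were higher and 3 lower, beside 1457 higher and 944 lower genes in all. Without a filter on low values, 14 of the 49 genes were called higher, beside 1016 of all 9086 genes then tested.

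The double mutant, which lacks *cchA* in addition to *cnaB*, had mostly higher values of the 49 genes than the single mutant. Loss of *cchA* cannot be told apart from the *pyrG* in its place. Nor can it be told apart from *riboB2* and *pyroA4*, which are not listed for the double mutant. With 1 library per strain and treatment the difference at either treatment has no test, the difference averaged over both was not tested, and the values also enter the rule. With salt, 43 of the 49 genes were higher in the double mutant, against 46.4% of the 7294 genes, with a median log2 difference of 0.44 against -0.02. Without salt, 38 genes were higher there, against 46.5%, with a median of 0.27 against -0.03. The salt to control ratio was higher in the double mutant for 31 genes, against 50.2%. The 324 genes repressed in all 3 strains had a median difference of 0.34 with salt, and 244 of them (75.3%) were higher in the double mutant. For the 136 genes with a parent ratio between the limits, 125 (91.9%) were higher there with salt. Without salt, 58.3% of the 324 and 70.6% of the 136 genes were higher there. The salt to control ratio was higher in the double mutant for 68.2% of the 324 and 64.0% of the 136 genes, beside 63.3% of the 49 genes, so these values were not particular to the 49 genes.

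At least 2-fold higher values with salt in the double mutant were found for 7 genes, against 1.14% of the 7294 genes. The shares were 14.3% of the 49, 8.33% of the 324 and 6.62% of the 136 genes. Of the 49 genes, AN6116 had the largest difference, 5.78-fold. It was followed by AN10964 (2.73-fold), AN5172 (2.51-fold) and AN5169 (2.41-fold). Without salt, the values of these 4 genes in the double mutant were between 0.722 and 1.24 of those in the single mutant. The opposite difference was found for 2 genes with salt, against 0.425%. AN7884 and AN7873 were 2.16-fold and 2.07-fold higher in the single mutant. Without salt, AN7873 was 2.05-fold higher in the single mutant, the only gene of the 49 with at least 2-fold (against 0.548%), and AN4608 was 2.30-fold higher in the double mutant, again the only one (against 1.00%).

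Several of the genes that differed most between the parent and the mutants were near each other in gene order. Of the 49 genes, 46 were matched to RefSeq assembly ASM1142v1, which differs from the assembly that the authors mapped to, so only the order of genes was used. No gene of the set was next to another, but 6 pairs were within 12 genes of each other. AN7873, AN7884, AN7893 and AN7897 make up 3 of these pairs, and AN5169 and AN5172 another. The remaining pairs were *bgt3* with AN10580 and AN5659 with AN5649. The distance of 12 genes was chosen after the positions were seen. How many pairs as many other genes would give was not worked out, so nothing is read from this number of pairs.

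The stretch from AN7873 to AN7884 holds 13 genes. Without salt, 9 of them were at least 2-fold higher in both mutants than in the parent, and the other 4 were listed at 0 in the parent control and detected in both mutants. Salt repression in both mutants was found for 8 of the 13 genes, and 1 gene, AN7877, was higher with salt in both. AN11031 is not among the 8, because no ratio was formed in the double mutant. It was at 11.6 and 1.61 in the single mutant, and at 4.40 and a listed 0 in the double mutant, so it was lower with salt there too. AN7873 was at 13.7 and 28.2 normalized RPM in the parent, 405 and 47.2 in the single mutant, and 197 and 22.8 in the double mutant. AN7884 was at 11.8 and 8.12, 181 and 18.6, and 118 and 8.61. In both, the mutant controls stood above all other libraries. Of the 8 repressed genes, 5 were under 2 in 1 or both parent libraries and so could not enter the set. AN7874, the neighbour of AN7873, is among them, with 93.4 and 12.2 in the single mutant and 1.00 in the parent control. All 13 genes were lower in the double than in the single mutant with and without salt. So were 10 of the 12 genes listed from AN7893 to AN7903, the stretch described next. Most of the 49 genes were higher in the double mutant.

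From AN7893 to AN7903, a stretch that includes the genes known as the DBA polyketide cluster (AN7896 to AN7903), 12 genes were listed. Without salt, 7 of these were at least 2-fold higher in both mutants than in the parent, and 5 were listed at 0 in the parent control and detected in both mutants. Salt responses within the stretch were not uniform. In both mutants, 5 of the 12 genes were repressed and 2 genes, AN7895 and AN7898, were higher with salt. AN7902 was at 1489 without salt and 193 with it in the single mutant, and at 1274 and 205 in the double mutant. AN7903 was at 1298 and 113, and at 986 and 106. Their ratios in both mutants were below those of AN7897, but both were listed at 0 in the parent control, so no parent ratio could be formed. AN7895 was at 3657 and 4576 in the single mutant, and at 2101 and 3538 in the double mutant. Of the 8 genes between the stretches (AN7885 to AN7892), 4 were under 2 in every library and 1, AN7891, was at least 2-fold higher without salt in both mutants.

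Of the 4 genes from AN5169 to AN5172, 3 were at least 2-fold higher without salt in both mutants, and AN5171 was listed at 0 in the parent control. AN5169 was at 21.6 and 27.03 in the parent, 148 and 29.8 in the single mutant, and 184 and 71.8 in the double mutant. AN5170 was at 1.38 and 10.8, 51.9 and 4.87, and 60.2 and 22.5. Its value was thus higher with salt in the parent and lower with salt in both mutants, but the parent control was below 2. With salt, all 4 genes were higher in the double than in the single mutant, between 2.41-fold and 4.63-fold.

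**Figure D4:**
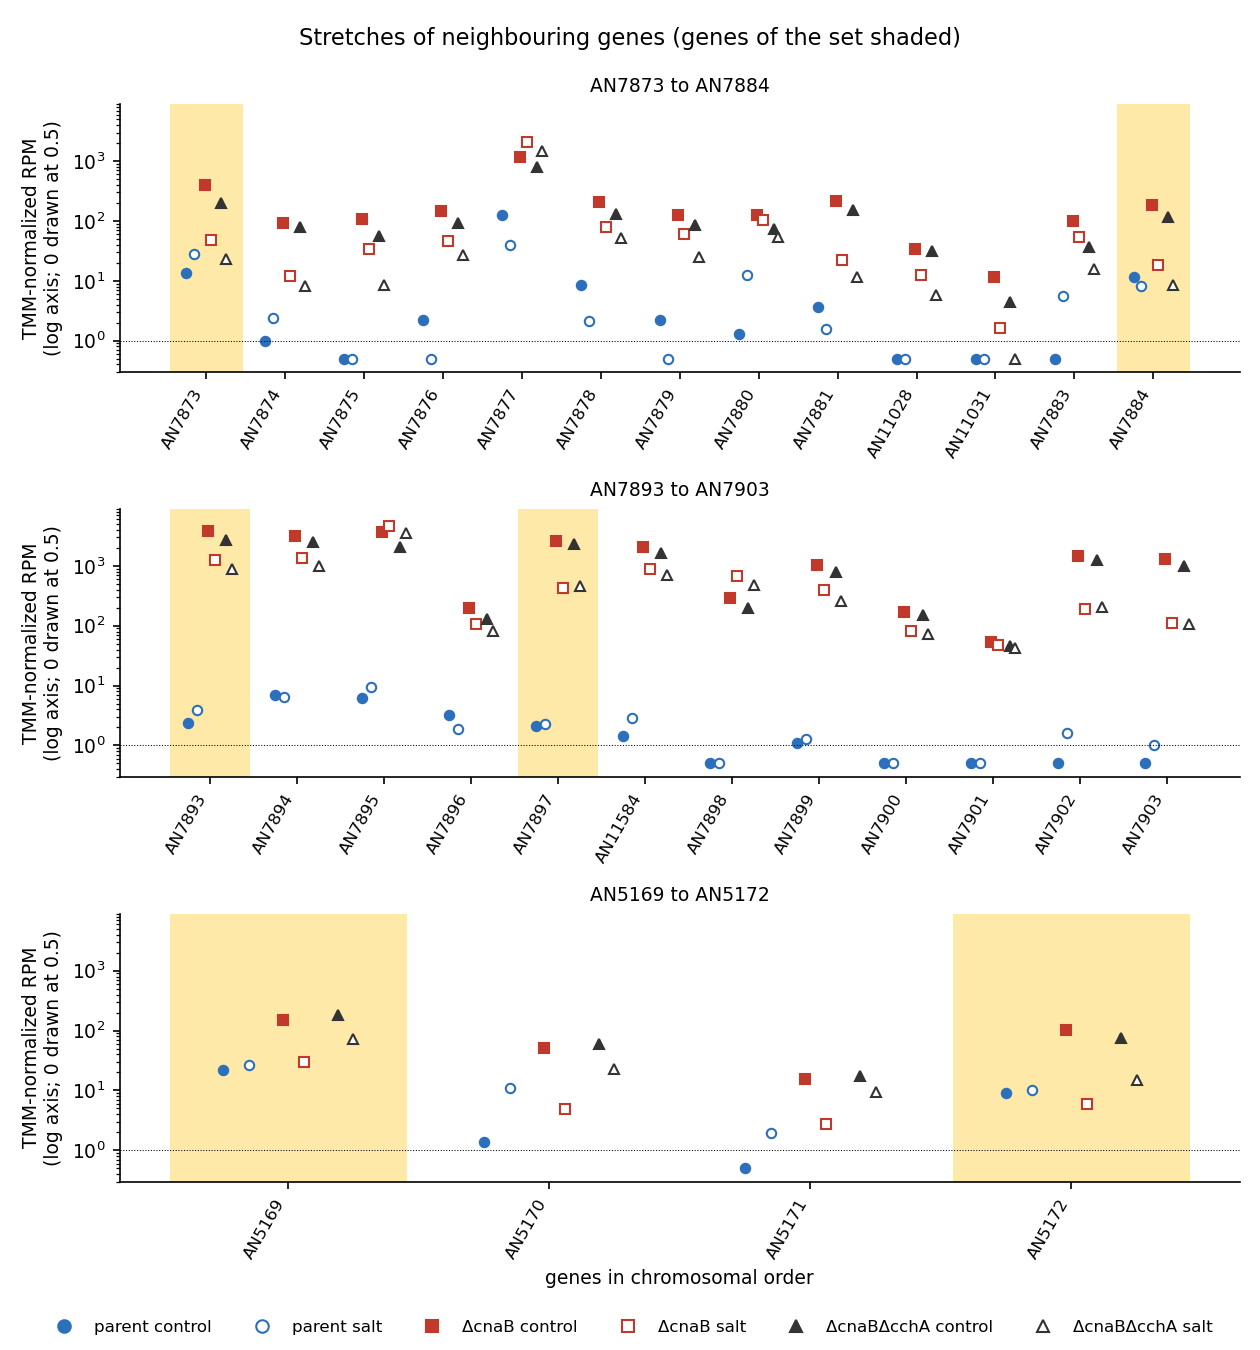
TMM-normalized RPM (log axis, values listed as 0 drawn at 0.5, dotted line at 1) of neighbouring genes in chromosomal order, with control libraries as filled and salt libraries as open symbols, and the genes of the set shaded. The mutant controls stand above the parent controls in all 3 stretches. Of the 10 unshaded genes with a ratio of at most 0.4 in both mutants, 9 have a parent value under 2. AN11031, listed at 0 with salt in the double mutant, has no ratio there and is not counted.

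Of the 49 genes, 3 have a symbol (*sebA*, *afeA* and *bgt3*), so most of the set cannot be assigned to a pathway from the names used here. Of 225 symbols in 8 lists of named genes, 88 were matched, and 75 of these genes had at least 2 in all 6 libraries. None was among the 49. This was fixed in advance, since the lists do not hold the 3 symbols of the set, so nothing is read from it. Salt repression in both mutants was found for 11 of the 75 genes, against 6.98% of the 7294 genes. These included 3 of 8 genes for nitrogen source use, 3 of 10 for sterol and isoprenoid synthesis, 2 of 6 for cell wall synthesis, 2 of 9 for polarity and septation and 1 of 9 for mitosis and tubulin. In the parent, 3, 5, 2, 5 and 1 genes of these lists were repressed, in the same order, so the counts are not particular to the mutants. The nitrate reductase gene *niaD* (AN1006), for example, was at 1267 and 139 in the parent, 1588 and 92.1 in the single mutant, and 1751 and 234 in the double mutant, so that it was repressed in the parent as well. The lists for osmotic stress signalling (13 genes), calcium and calcineurin (5 genes) and conidial and developmental markers (15 genes) had no gene repressed in both mutants. None of the 75 genes was at least 2-fold higher without salt in both mutants, against 6.64% of the 7294 genes.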

How the data were processed

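RNA was sequenced from 6 cultures, the parent and both deletion strains each under control and salt conditions. As described by the authors, paired-end reads were mapped with TopHat to ASM14920v1 and quantified with RSEM, and values were normalized by TMM and compared between pairs of libraries with DEGseq. The deposited values are a normalized signal (TMM-normalized RPM), although the column heading calls them read counts. By value steps, 1 read was worth 0.0184 to 0.0264 normalized RPM. The reads obtained so exceed those stated for the study, so counting intervals may be too narrow. Whether strand was used is not given in the sources used here, so reads of overlapping or antisense genes cannot be told apart.

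The rule was applied with Python 3.11.15 and pandas 2.3.3. Log2 differences carry no constant. Levels averaged over treatments were fitted with limma 3.58.1 (R 4.3.3) on log2(value + 0.1), with loss of *cnaB*, salt and their interaction as terms, eBayes with trend and 2 residual degrees of freedom, for genes with at least 2 in all libraries. The fit was tested on simulated data. Alternatives were other scalings, filters, limits of the rule, a constant of 1, and leaving out either mutant. The set, gene lists and tests were chosen with earlier results of these data known. Named genes were those with a symbol, the 10 with the largest difference in salt ratio, the 10 with the highest mean value, genes at the limits of the rule, *cnaB* and *cchA*, and members near each other. Genes named for a difference between the mutants or for their salt level, AN6224, *niaD* and the neighbouring genes outside the set were chosen after their values were seen. Gene names and order were taken from RefSeq ASM1142v1, in which 10032 of 10957 identifiers were found. Sequences were not used here.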

Additional observations from a re-analysis of the deposited data

Results flagged for a closer look

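In 2 of the 49 genes the value was more than 2-fold higher with salt in the parent and lower in both mutants, so that the strains moved in opposite directions. The log2 salt ratio in the parent was 1.04 for AN7873 and 1.26 for AN12015. The linear ratios of the single and double mutants were 0.117 and 0.116 for AN7873 and 0.292 and 0.323 for AN12015. AN12015 was at 3.48 and 8.32 normalized RPM in the parent, 18.6 and 5.42 in the single mutant, and 22.4 and 7.25 in the double mutant. Whether the strains differ was not tested, since the rule chose the genes by this difference.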

How the results depend on the processing

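The number of genes in the set was 64 when libraries were scaled to their own totals, of which 34 were among the 49 genes, and 51 with a median of ratios, of which 47 were. It was 61 and 34 with limits of 1 and 5 on the values. The limits of the rule moved it further, to 132 and 26 with a deletion ratio of at most 0.5 and 0.33, and to 98 and 26 with a parent ratio of at least 0.5 and 0.8. Applied without the single or without the double mutant, the rule gave 93 and 89 genes, and the median of the level averaged over treatments, 0.69 (0.695) in the 49 genes, was 0.94 and 0.46. Scaling to library totals gave median salt log2 ratios of -0.53 for the parent, -2.14 for the single and -1.87 for the double mutant. With a median of ratios, the median differences of the single and double mutants from the parent were 1.61 and 2.03 without salt and -0.065 and 0.44 with salt, while 36 genes, in place of 31, were at least 2-fold higher without salt. That scaling, which removes the difference of -0.30 between the medians of all genes, gave 1457 higher and 944 lower genes in the limma comparison, against 911 and 2911. There, 24 of the 49 genes were higher as reported, 15 of the 34 genes left with a limit of 5, and 14 with no filter. Over all genes, 911 of 7294, 763 of 6329 and 1016 of 9086 were higher in these settings. The cause of the lower number of the 49 genes with no filter was not tested. The settings run turned the direction of no median or call count of the 49 genes, but the median of ratios turned the median difference of all genes from the parent from -0.29 to 0.01 for the double mutant without salt, and with salt from -0.26 to 0.04 for the single and from -0.27 to 0.05 for the double mutant. No paired analysis was possible because the labels give no replicate numbers, and the planned count test on whole reads was not run. Depth limits the genes near 2 normalized RPM, and the listing of values below about 1 as 0 limits those under it.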

Other observations

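The limit of 2 normalized RPM in every library left out genes that were nearly silent in the parent. A further 23 genes had at least 2 in all 4 libraries of the mutants and a salt ratio of at most 0.4 in both, with a parent value under 2 in at least 1 library. Of these, 7 were under 2 in both parent libraries, 2 had no value above 0 there, and 20 had at least 10 normalized RPM in both mutant controls. AN7902 and AN7903 belong to this group.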
